A study of Mus musculus with 6 samples.

Results

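Transcripts of platelets were followed in RNA from mouse hearts injured by ischemia and reperfusion (I/R), the interruption and return of the heart's blood supply. The members were 10 genes, Ppbp, Pf4, Itga2b, Itgb3, Gp1ba, Gp1bb, Gp9, Gp5, Clec1b and Treml1, out of 55359 genes in the deposited table, found by their gene names. They were chosen by their values in the very comparison described here, so their levels are a description and no test is read from them. Of the 6 libraries, 3 came from hearts of C57BL/6 mice given a YTHDF2 shRNA (shYthdf2 1 to 3) and 3 from hearts of C57BL/6 mice given the NC shRNA (shNC 1 to 3). Both groups received the shRNA in an AAV9 virus by the tail vein, in a construct with a GFP gene and the cTNT promoter, a promoter active in cardiomyocytes. Both groups had I/R surgery 4 weeks later (ischemia of 45 min, reperfusion of 24 h), and no uninjured heart was analysed here. The labels give no age, and they do not say whether the libraries of a group came from separate animals, so a p-value measures the spread between these libraries, which may be technical.

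Platelets are blood cells without a nucleus. They are shed by megakaryocytes and carry RNA made there, which reaches a heart library with the blood, clots and adhering platelets that the tissue retains. Some members, such as Pf4 and Itgb3, are also expressed by other cells, macrophages and endothelium among them. Their best known proteins are the chemokines stored in alpha granules, the fibrinogen receptor formed by the integrin chains alpha IIb and beta 3, the GPIb-IX-V complex that binds von Willebrand factor, and the C-type lectin receptor CLEC-2. Platelets gather in injured heart vessels after reperfusion. In bulk tissue, more cells of a type and more RNA per cell cannot be told apart.

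The libraries held 67023813 to 77561552 counts, and 3 counts correspond to 0.0388 to 0.0443 counts-per-million (CPM), an allowance for counting error alone. Ythdf2, the target of the shRNA, had 25.1, 25.6 and 32.7 CPM in shYthdf2 against 20.7, 24.3 and 27.0 CPM in shNC, with a log2 fold change of 0.21 ± 0.20 (SE; adjusted p = 0.976, edgeR quasi-likelihood test). The labelled knockdown was thus not seen in the target's mRNA, and every direction given below is relative to that label. In whole tissue, cells that the cTNT promoter does not reach also contribute Ythdf2 mRNA, and their part in these values was not tested. Libraries shYthdf2 1 and 2 were the closest pair of the 6. Over genes, the median chi-square of their counts was 4.92, against 14.2 for the next closest pair, 43.5 for the most distant pair and 0.455 for sampling noise alone. They differed by more than sampling noise and were kept as 2 libraries, and the members' median, fold changes and counts are also given without each of them.

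Promoters of 9 of the 10 members were found in the RefSeq table of build GRCm38.p6, which spans 250 bases before to 50 bases after each gene's start. The 4 promoters shown are those of Ppbp and Pf4, neighbouring genes whose ratio to each other differed between the libraries, and those of Gp9 and Gp1ba, the members with the highest and the lowest ratios to shNC in shYthdf2 1 and 2. Each is given 5′ to 3′ on the gene's strand, and capitals mark matches on either strand to the GATA letters AGATAA or AGATAG or TGATAA or TGATAG and to the ETS letters CGGAAG or AGGAAG, 2 families of factors known to act in megakaryocytes. A match to the minus strand appears as its reverse complement. The coordinates are chr5:90768268-90768567 for Ppbp, chr5:90772185-90772484 for Pf4, chr6:87777820-87778119 for Gp9 and chr11:70638872-70639171 for Gp1ba, all on the plus strand.
Ppbp: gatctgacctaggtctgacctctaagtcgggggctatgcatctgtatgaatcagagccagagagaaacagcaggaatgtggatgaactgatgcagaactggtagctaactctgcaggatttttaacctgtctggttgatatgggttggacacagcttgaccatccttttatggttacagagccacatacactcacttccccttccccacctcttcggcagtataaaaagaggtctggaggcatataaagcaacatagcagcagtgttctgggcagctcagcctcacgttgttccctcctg
Pf4: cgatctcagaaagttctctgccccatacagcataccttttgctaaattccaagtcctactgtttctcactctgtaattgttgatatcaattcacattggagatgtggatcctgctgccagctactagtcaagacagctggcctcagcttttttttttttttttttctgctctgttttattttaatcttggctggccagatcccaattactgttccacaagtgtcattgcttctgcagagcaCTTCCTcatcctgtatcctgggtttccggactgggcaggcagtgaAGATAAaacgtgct
Gp9: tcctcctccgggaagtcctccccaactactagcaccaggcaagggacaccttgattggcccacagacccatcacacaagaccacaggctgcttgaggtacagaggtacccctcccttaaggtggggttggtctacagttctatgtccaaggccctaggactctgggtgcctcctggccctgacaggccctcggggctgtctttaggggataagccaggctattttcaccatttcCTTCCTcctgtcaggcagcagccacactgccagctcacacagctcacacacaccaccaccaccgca
Gp1ba: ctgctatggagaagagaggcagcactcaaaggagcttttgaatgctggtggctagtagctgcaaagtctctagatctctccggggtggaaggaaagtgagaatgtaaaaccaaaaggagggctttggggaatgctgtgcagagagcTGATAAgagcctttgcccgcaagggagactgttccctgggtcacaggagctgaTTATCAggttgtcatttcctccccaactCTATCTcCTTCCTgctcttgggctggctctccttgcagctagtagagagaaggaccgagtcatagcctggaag

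The Pf4 promoter held 1 GATA and 1 ETS match, the Gp1ba promoter 3 GATA and 1 ETS, the Gp9 promoter 1 ETS and no GATA match, and the Ppbp promoter neither. Over the 9 promoters, 5 held GATA letters, against 29.8% of all 32851 promoters in the table. ETS letters stood in 6 of the 9, against 46.5% of all promoters, and both sets stood in 4 of the 9, against 12.6% of all. The letters TGTGGT of the RUNX family were found in 1 of the 9, that of Gp9, against 16.8% of all. Gp5, whose promoter is not shown, also held 3 GATA matches. A match is a description of letters and not a binding site, and promoters that lack one say nothing of the factor.

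In shYthdf2 1 and 2 the 10 members stood at 1.93 to 24.0 times and 1.76 to 26.1 times the mean CPM of shNC, with medians of 6.65 and 6.97. In shYthdf2 3 the same genes stood at 0.132 to 1.87 times that mean, with a median of 0.832. Libraries shYthdf2 1 and 2 were the highest 2 of the 6 for 10 of 10 members, which were chosen by these values, and for 7.45% of all genes tested, and shYthdf2 3 was the lowest of all 6 for 4 members. The group difference of the platelet transcripts was thus carried by 2 of the 3 shYthdf2 libraries.

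**Figure D1:**
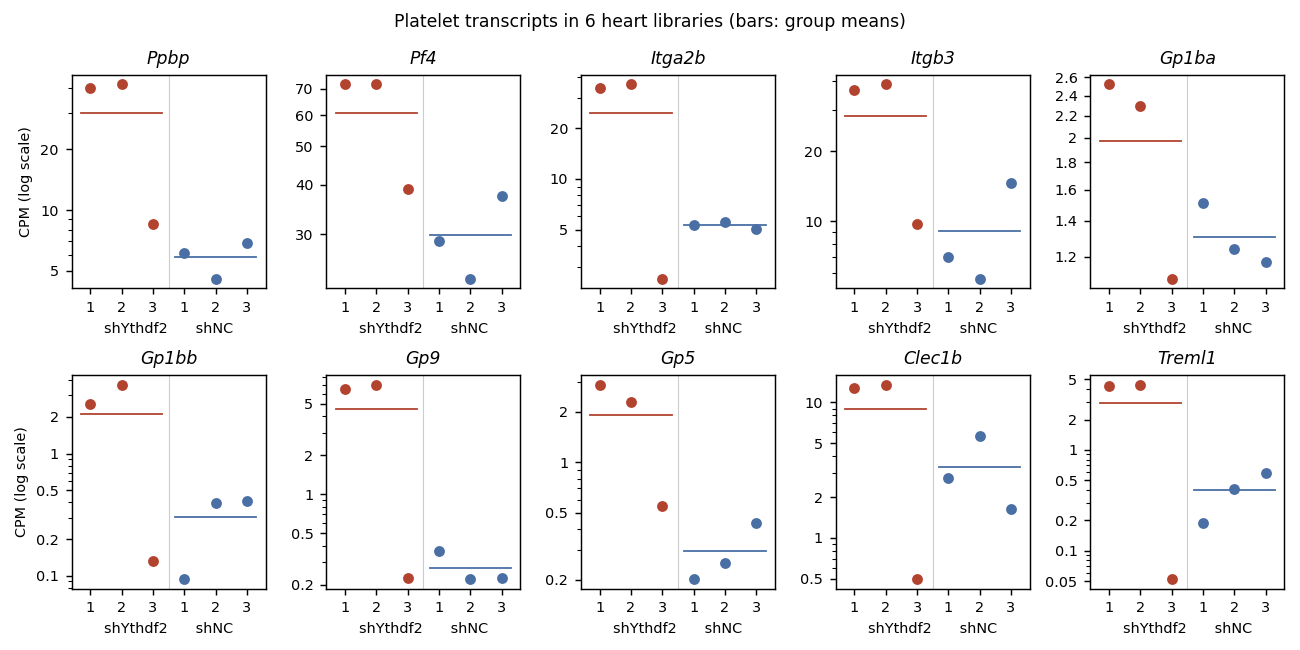
CPM (log scale) of the 10 members in each library, shYthdf2 1 to 3 in red left of shNC 1 to 3 in blue, with a line at each group's mean over 3 libraries. In every panel shYthdf2 1 and 2 are the highest points, while shYthdf2 3 is above all shNC libraries for Ppbp, Pf4 and Gp5 and the lowest point for Itga2b, Gp1ba, Clec1b and Treml1.

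All 10 members passed the filter on low counts, and none was called at an adjusted p under 0.05 by the edgeR quasi-likelihood test, each with an adjusted p of 0.976. Over all 20489 genes tested, 2 were called, Kctd12 and Eif4e (adjusted p = 0.00877 and 0.0203), named after their values were seen, which is 0.00976%. At an unadjusted p under 0.05 stood 7 of the 10 members, against 3.65% of all genes tested in either direction. Leaving out shYthdf2 1, shYthdf2 2, shNC 1 or shNC 2 gave 4 of 10, against 2.15%, 2.36%, 3.55% and 2.39% of all genes. Leaving out shNC 3 gave 5, against 19.6% of all genes, and leaving out shYthdf2 3 gave 10, against 3.39%. At least 2-fold higher were 9 members, against 4.04% of all genes. In 3 members every shYthdf2 library was above every shNC library in CPM, against 4.95% of all genes. The members' median log2 fold change was 2.28, and that of all genes tested was -0.01. Since the members were chosen by this contrast, nothing is read from these shares. DESeq2 called 2 of the 10, Ppbp and Gp9 (adjusted p = 0.0156 and 0.0126), against 0.264% of all genes tested, and edgeR called none with any 1 library left out. The median was 1.99 without shYthdf2 1, 1.92 without shYthdf2 2 and 2.77 without shYthdf2 3, and without 1 or 2 the other of the close pair remained. The log2 fold changes of the members ranged from 0.38 for Gp1ba to 3.75 for Gp9 without shYthdf2 1, from 0.47 to 3.62 for the same genes without shYthdf2 2, and from 0.88 to 4.64 without shYthdf2 3.

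The granule chemokines had the highest FPKM of the members in every library. Ppbp (ENSMUSG00000029372; chromosome 5, 90916377 to 90917922, plus strand, in the table's coordinates, whose build is not stated) encodes pro-platelet basic protein, the precursor of the neutrophil attractant CXCL7. Its level was 40.0, 41.8 and 8.55 CPM in shYthdf2 1 to 3 against 6.16, 4.59 and 6.86 CPM in shNC 1 to 3. The groups did not overlap, although shYthdf2 3 lay much closer to shNC than to its own group. The means were 30.1 ± 18.7 CPM in shYthdf2 and 5.87 ± 1.16 CPM in shNC (SD, n = 3 each), and the log2 fold change was 2.36 ± 0.56 (SE; 95% interval 1.04 to 3.68). Since the members were chosen by this contrast, their intervals describe the spread between libraries and are not read as tests.

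Pf4 (ENSMUSG00000029373; chromosome 5, 90920294 to 90921242, plus strand) encodes platelet factor 4, or CXCL4, a heparin-binding chemokine. It had 71.8, 71.7 and 39.1 CPM in shYthdf2 and 28.8, 23.2 and 37.5 CPM in shNC. The groups did not overlap, but shYthdf2 3 and shNC 3 were almost level. Means were 60.8 ± 18.8 CPM in shYthdf2 and 29.8 ± 7.22 CPM in shNC (SD, n = 3 each), 2.04 times apart, with a log2 fold change of 1.03 ± 0.30 (SE; 95% interval 0.33 to 1.73).

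In FPKM, Pf4 stood at 90.9, 90.6 and 48.4 in shYthdf2 and at 34.8, 25.7 and 52.6 in shNC. FPKM divide by gene length and by depth, while the CPM also carry a library scaling factor (TMM). That factor was 1.13 in shNC 3 and 0.980 in shYthdf2 3. On the FPKM scale shNC 3 was above shYthdf2 3, so the lack of overlap for Pf4 depends on the scaling. Only 2371 bases separate the end of Ppbp from the start of Pf4, yet their FPKM ratio was not constant. Pf4 stood at 2.69, 2.58 and 6.87 times Ppbp in shYthdf2 and at 7.04, 7.59 and 8.21 times Ppbp in shNC. The ratio in shYthdf2 3 lay next to those of shNC.

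Next to this pair lie further CXC chemokine genes, which myeloid, endothelial and stromal cells also make. Cxcl3, on the far side of Pf4, had 54.9, 54.3 and 6.59 CPM in shYthdf2 against 8.63, 11.4 and 8.13 CPM in shNC. Cxcl2, a neutrophil attractant farther along, had 59.5, 57.3 and 6.20 CPM in shYthdf2 against 5.52, 11.98 and 9.35 CPM in shNC. Both were highest in shYthdf2 1 and 2, like the members, although neither is a platelet marker. Cxcl1, between Cxcl3 and Cxcl2, had 41.4, 41.6 and 20.4 CPM in shYthdf2 against 13.8, 35.9 and 22.3 CPM in shNC. Libraries shYthdf2 1 and 2 were its highest too, but its groups overlapped. Cxcl5, on the near side of Ppbp, had 64.8, 80.3 and 57.5 CPM in shYthdf2 against 35.8, 76.7 and 54.7 CPM in shNC, and its groups overlapped.

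The integrin chains of the fibrinogen receptor were lower than Pf4 in FPKM in every library. Itga2b (ENSMUSG00000034664; chromosome 11, 102344123 to 102360948, minus strand) encodes alpha IIb, made in megakaryocytes and platelets and in early blood progenitors. It had 34.6, 36.3 and 2.58 CPM in shYthdf2 against 5.36, 5.58 and 5.04 CPM in shNC. The shNC libraries differed little among themselves, and shYthdf2 3 lay below all of them, at 0.484 times their mean. Its log2 fold change was 2.20 ± 0.81 (SE; 95% interval 0.30 to 4.10). The Itga2b row shares 251 bases with a row named Metazoa_SRP on the same strand. That row had 0, 5 and 0 counts in shYthdf2 and 0 in each shNC library.

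Itgb3 (ENSMUSG00000020689; chromosome 11, 104498826 to 104561302, plus strand) encodes beta 3, which also pairs with the integrin chain alpha V in endothelial and other cells. Its level was 36.6, 38.8 and 9.71 CPM in shYthdf2 against 6.99, 5.68 and 14.6 CPM in shNC, so that shNC 3 was above shYthdf2 3 and the groups overlapped. The log2 fold change was 1.64 ± 0.58 (SE; 95% interval 0.29 to 2.99). In FPKM, Itga2b stood at 1.02, 1.01 and 0.284 times Itgb3 in shYthdf2 and at 0.822, 1.06 and 0.371 times Itgb3 in shNC. The ratio was thus lower in shYthdf2 3 and shNC 3 than in the other 4 libraries. Its size depends on the gene lengths behind the FPKM, so it does not give the proportion of the 2 chains' transcripts.

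The GPIb-IX-V complex tethers platelets to von Willebrand factor, and its 4 genes differed most among themselves. Gp9 (ENSMUSG00000030054; chromosome 6, 87755054 to 87756750, plus strand), glycoprotein IX, had 6.47, 7.05 and 0.224 CPM in shYthdf2 against 0.365, 0.221 and 0.224 CPM in shNC, from 467, 546 and 17 counts and from 27, 15 and 17 counts. Library shYthdf2 3 lay within the shNC range while the other two stood at 24.0 and 26.1 times the shNC mean, the highest ratios among the members. The log2 fold change was 4.08 ± 1.11 (SE; 95% interval 1.48 to 6.67).

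Gp1ba (ENSMUSG00000050675; chromosome 11, 70529948 to 70532862, plus strand), the alpha chain of glycoprotein Ib that holds the binding site for von Willebrand factor, had 2.52, 2.30 and 1.09 CPM in shYthdf2 against 1.51, 1.24 and 1.17 CPM in shNC. Libraries shYthdf2 1 and 2 were again the highest and shYthdf2 3 the lowest, within a narrow span. Its log2 fold change of 0.59 ± 0.42 (SE; 95% interval -0.39 to 1.57) was the lowest among the members.

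Gp5 (ENSMUSG00000047953; chromosome 16, 30126503 to 30129597, minus strand), glycoprotein V, a substrate of thrombin, had 2.91, 2.29 and 0.553 CPM in shYthdf2 against 0.203, 0.251 and 0.435 CPM in shNC. Its groups did not overlap, but shYthdf2 3 was just above shNC 3, at 42 against 33 counts, a gap that counting error alone could give. The log2 fold change was 2.69 ± 0.70 (SE; 95% interval 1.05 to 4.32).

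Gp1bb (ENSMUSG00000050761; chromosome 16, 18439067 to 18441153, minus strand), the beta chain of glycoprotein Ib, had 183, 285 and 10 counts in shYthdf2 against 7, 27 and 31 counts in shNC. Its row shares 1902 bases with that of Septin5 and 1938 bases with that of Gm49601 on the same strand, so its counts are uncertain. Septin5, a septin known from platelet secretion, had 800, 257 and 542 counts in shYthdf2 against 681, 194 and 385 in shNC, and Gm49601 had 135, 312 and 97 against 259, 101 and 344. Neither had shYthdf2 1 and 2 as its highest pair of libraries. For Gp1bb the log2 fold change was 2.81 ± 1.10 (SE; 95% interval 0.22 to 5.40).

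Summed over the complex, GPIb-IX-V had 9.85, 10.6 and 0.854 FPKM in shYthdf2 against 0.957, 0.801 and 1.08 FPKM in shNC. Gp9 made up most of the sum in shYthdf2 1 and 2, at 7.93 and 9.48 times the FPKM of Gp1ba. The same ratio was 0.624 in shYthdf2 3, and in shNC it was 0.732, 0.546 and 0.585. Gp5 stood at 1.43, 1.23 and 0.618 times Gp1ba in shYthdf2 against 0.164, 0.239 and 0.463 times Gp1ba in shNC. The FPKM ratios of the subunits thus differed between the libraries and not only their sum. Outside shYthdf2 1 and 2 these ratios rest on 15 to 27 counts of Gp9 and 15 to 42 counts of Gp5. The sum includes Gp1bb, whose counts are uncertain.

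The last members are receptors outside that complex. Clec1b (ENSMUSG00000030159; chromosome 6, 129374260 to 129386298, plus strand) encodes CLEC-2, the platelet receptor for podoplanin. It had 12.8, 13.5 and 0.49997 CPM in shYthdf2 against 2.78, 5.61 and 1.63 CPM in shNC. Library shYthdf2 3 was the lowest of the 6, and shNC varied 3.43-fold from its lowest to its highest library. The log2 fold change was 1.42 ± 1.00 (SE; 95% interval -0.93 to 3.77). Its row shares 474 bases with that of Clec9a, a dendritic cell lectin, on the same strand, which had 618, 605 and 431 counts in shYthdf2 against 798, 666 and 322 in shNC.

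Treml1 (ENSMUSG00000023993; chromosome 17, 48666944 to 48674204, plus strand) encodes TLT-1, a receptor kept in alpha granules and brought to the surface on activation. It had 4.25, 4.44 and 0.0526 CPM in shYthdf2 against 0.189, 0.413 and 0.593 CPM in shNC, which rest on 307, 344 and 4 counts and on 14, 28 and 45 counts. The 4 counts of shYthdf2 3 were the fewest of any member in any library and close to the floor of 3. Its log2 fold change was 2.87 ± 1.24 (SE; 95% interval -0.04 to 5.77).

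**Figure D2:**
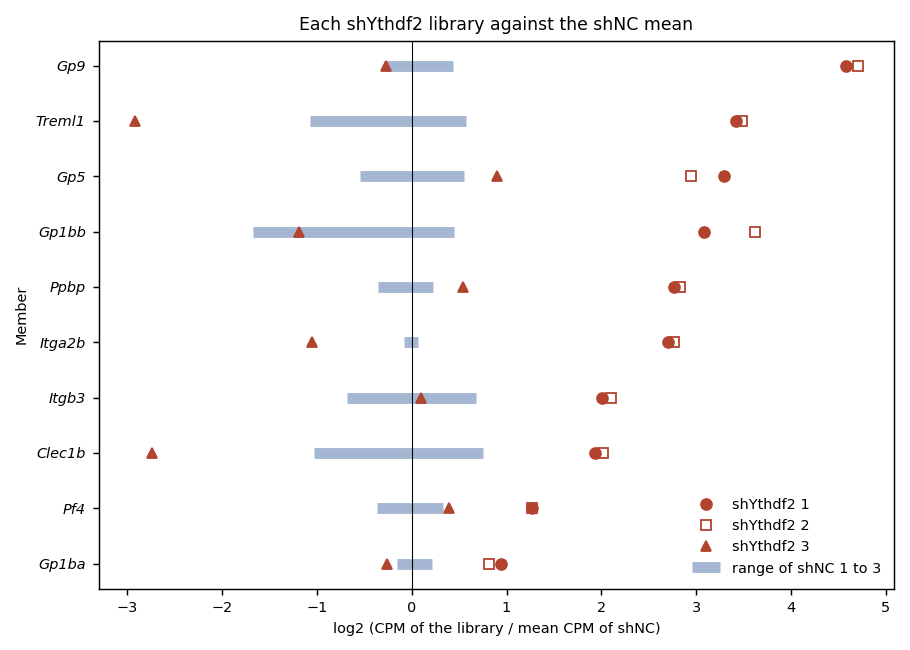
Log2 ratio of each shYthdf2 library (red symbols) to the mean CPM of shNC for the 10 members, with the range of the 3 shNC libraries as a blue bar. Circles and squares, shYthdf2 1 and 2, lie to the right of every bar, whereas the triangles of shYthdf2 3 lie above the shNC range for 3 members, within it for 3 and below it for 4.

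Libraries shYthdf2 1 and 2 resembled each other member by member, at 0.688 to 1.27 times each other's CPM. Over the 6 libraries each member's log2 CPM had a Pearson r of 0.795, for Clec1b, to 0.983, for Itga2b, with the mean of the other 9 members. These correlations describe 6 libraries, are given with no p, and rest on the 2 that stand apart. Under 1 CPM were 5 members in shYthdf2 3 and none in shYthdf2 1 and 2, against 4 members in each shNC library.

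Summed over the members, FPKM came to 151, 154 and 58.3 in shYthdf2 against 43.2, 32.6 and 64.3 in shNC, so the sum of shNC 3 was above that of shYthdf2 3. Pf4 and Ppbp made up 82.6%, 81.8% and 95.1% of it in shYthdf2, against 92.1%, 89.3% and 91.8% in shNC. The 8 other members together had 26.3, 27.9 and 2.85 FPKM in shYthdf2 against 3.42, 3.49 and 5.26 FPKM in shNC. Without the granule chemokines, shYthdf2 3 was thus the lowest of the 6 libraries.

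**Figure D3:**
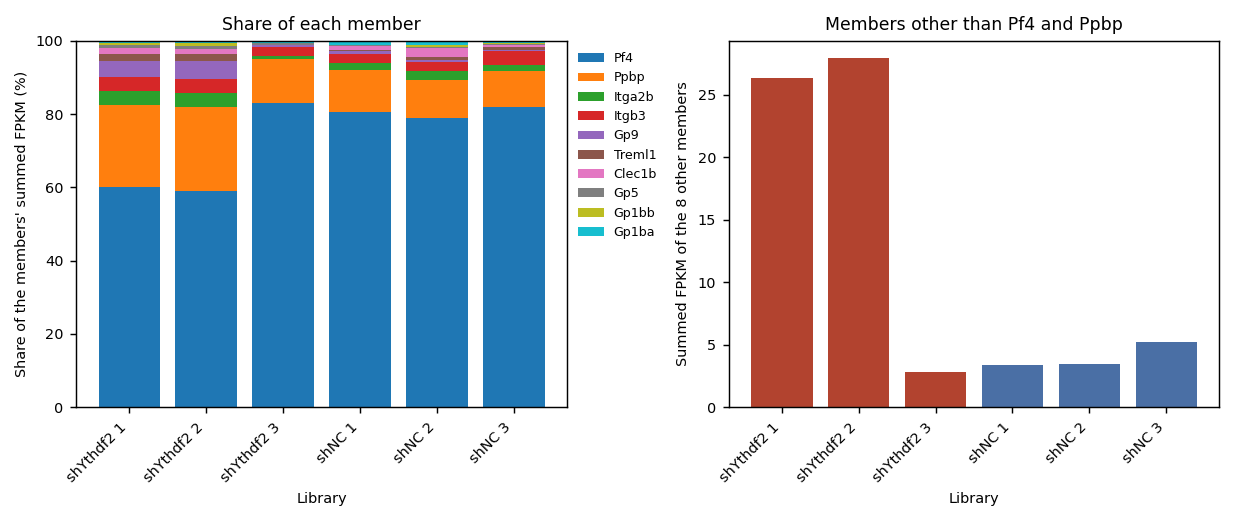
Left, share of each member in the summed FPKM of the 10 members by library. Right, summed FPKM of the members other than Pf4 and Ppbp, which was 26.3 and 27.9 in shYthdf2 1 and 2, 2.85 in shYthdf2 3, and 3.42 to 5.26 in shNC.

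Other genes of the platelet lineage were read from 5 lists with 100 genes, of which 95 were tested. None was called by edgeR in either direction, against 0.00976% of all genes tested, and DESeq2 called 2, Itgb1 and Rab27b (adjusted p = 0.0153 and 0.04999), against 0.264% of all genes tested. At an unadjusted p under 0.05 stood 7 of the 95, all higher, against 3.65% of all genes in either direction. Without shNC 3 the count was 40 of 97, against 19.6% of all genes, and without shYthdf2 3 it was 20 of 97, against 3.39% of all genes. A positive log2 fold change was found in 72 of the 95, with a median of 0.34, and in 48.6% of all genes tested. At least 2-fold higher were 14 of the 95, against 4.04% of all genes. That count was 12 of 96 without shYthdf2 1, 13 of 97 without shYthdf2 2, 21 of 97 without shYthdf2 3 and 31 of 97 without shNC 3, against 4.60%, 4.90%, 5.66% and 11.2% of all genes. In 26 of the 95, shYthdf2 1 and 2 were the highest libraries, against 7.45% of all genes tested. The lists were chosen with earlier results of these data known, so no test is read from these shares.

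Platelet receptors and adhesion molecules had the highest median log2 fold change of the 5 lists, 0.66. Of 20 tested genes, 15 were positive and 7 were at least 2-fold higher. Gp6, the collagen receptor of platelets, had 2.01, 2.97 and 0 CPM in shYthdf2 against 0.297, 0.0590 and 0.395 CPM in shNC. It had no count in shYthdf2 3, and shYthdf2 1 and 2 were its highest libraries.

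P2ry12, an ADP receptor that microglia and some macrophages also carry, had 5.12, 4.69 and 1.39 CPM in shYthdf2 against 1.55, 1.11 and 2.75 CPM in shNC. Cd226, an adhesion receptor shared with T and natural killer cells, had 1.23, 3.27 and 0.382 CPM in shYthdf2 against 0.257, 0.0590 and 0.408 CPM in shNC. In both, shNC 3 was above shYthdf2 3. Itgb1, the integrin chain beta 1 found on nearly all cells, had another pattern, with 424, 434 and 473 CPM in shYthdf2 against 148, 221 and 244 CPM in shNC and shYthdf2 3 the highest (log2 fold change 1.12 ± 0.24, SE; adjusted p = 0.976, edgeR).

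Of the signalling and cytoskeleton genes 26 of 29 were positive, with a median log2 fold change of 0.36, and 4 were at least 2-fold higher. Tubb1, the tubulin of the platelet marginal band, had 7.98, 7.38 and 0.224 CPM in shYthdf2 against 0.419, 0.339 and 0 CPM in shNC. With a log2 fold change of 4.36 ± 1.504 (SE; adjusted p = 0.976, edgeR) it followed the pattern of Gp9. Trpc6, a calcium-permeable channel also found in smooth muscle, had 1.51, 2.35 and 0.724 CPM in shYthdf2 against 0.405, 0.443 and 0.211 CPM in shNC. Stim1, the calcium sensor of the endoplasmic reticulum, had 6.56, 7.62 and 11.8 CPM in shYthdf2 against 4.54, 4.40 and 2.78 CPM in shNC. In Trpc6 and Stim1 the groups did not overlap, and Stim1 was highest in shYthdf2 3.

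Granule cargo other than the 2 chemokines had a median log2 fold change of 0.38, with 14 of 18 genes positive. Thbs1, thrombospondin 1, which many injured tissues also make, had 267, 286 and 63.9 CPM in shYthdf2 against 33.6, 30.1 and 143 CPM in shNC. Selp, P-selectin of platelets and endothelium, had 20.5, 19.4 and 5.91 CPM in shYthdf2 against 6.98, 19.7 and 3.11 CPM in shNC. The groups overlapped in both, since shYthdf2 3 was below shNC 3 for Thbs1 and below shNC 1 and 2 for Selp.

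Vwf, von Willebrand factor, made in endothelium and megakaryocytes, had 112, 116 and 56.4 CPM in shYthdf2 against 191, 60.8 and 42.3 CPM in shNC, with a log2 fold change of -0.05. The tetraspanin gene Cd9 had 92.8, 95.7 and 55.9 CPM in shYthdf2 against 63.9, 51.3 and 54.9 CPM in shNC. F13a1, the A chain of factor XIII, also made by macrophages, had 78.9, 82.5 and 70.6 CPM in shYthdf2 against 52.9, 51.1 and 74.0 CPM in shNC. In all 5 named cargo genes the groups overlapped.

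Transcription factors of the lineage had a median log2 fold change of 0.19, with 8 of 11 tested genes positive and none 2-fold higher. Nfe2, which is needed for platelet release, had 3.81, 4.9999 and 1.17 CPM in shYthdf2 against 0.891, 1.48 and 2.87 CPM in shNC. Gata1 had 14, 50 and 0 counts in shYthdf2 against 0, 0 and 7 counts in shNC, and Gfi1b, a repressor in megakaryocytes and red cell precursors, had 13, 5 and 0 against 4, 0 and 10 counts. Both fell below the filter and were not tested. Gata2, also found in endothelium, had 35.2, 29.4 and 21.6 CPM in shYthdf2 against 30.5, 23.3 and 13.1 CPM in shNC, and Lyl1 had 9.79, 9.10 and 5.99 CPM against 13.8, 7.66 and 9.97 CPM.

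Genes of granule biogenesis and secretion had the lowest median log2 fold change of the 5 lists, 0.04, with 9 of 17 positive. Rab27b, a small GTPase of granule secretion, had 3.01, 2.61 and 3.97 CPM in shYthdf2 against 1.09, 1.30 and 1.46 CPM in shNC. Its groups did not overlap and shYthdf2 3 was the highest, unlike in any member (log2 fold change 1.31 ± 0.33, SE; adjusted p = 0.976, edgeR). Ap3b1, a subunit of the adaptor AP-3 for lysosome-related organelles, had 22.0, 21.9 and 32.1 CPM in shYthdf2 against 13.4, 19.1 and 20.9 CPM in shNC. Vamp8, a vesicle SNARE of platelet secretion, had 80.7, 79.1 and 54.8 CPM in shYthdf2 against 90.9, 108 and 86.8 CPM in shNC, lower in every shYthdf2 library.

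**Figure D4:**
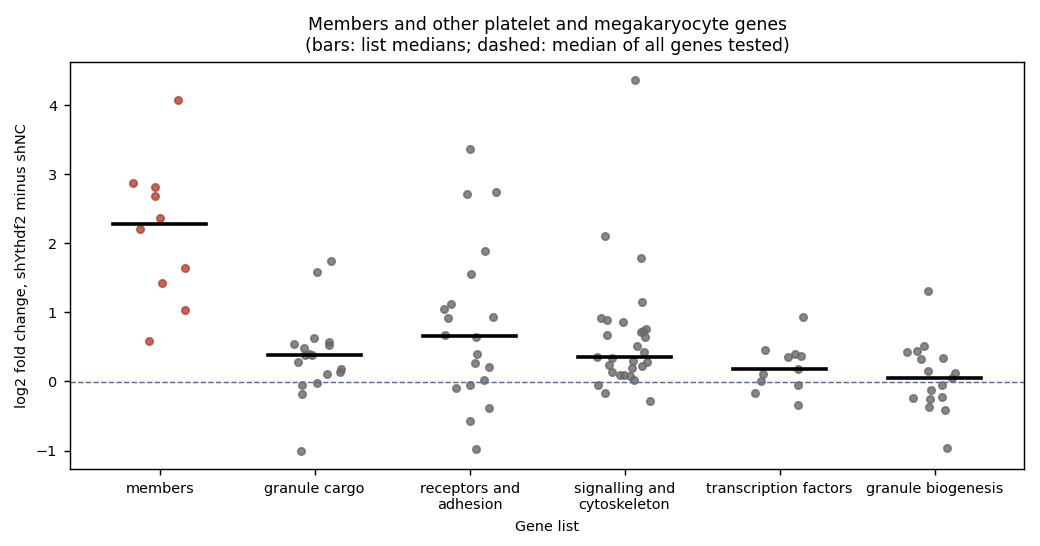
Log2 fold change, shYthdf2 minus shNC, of the 10 members (red) and of the tested genes of 5 other platelet and megakaryocyte lists (grey), with a bar at each list's median and a dashed line at the median of all genes tested, -0.01. The medians were 2.28 for the members, which were chosen by this contrast, and 0.38, 0.66, 0.36, 0.19 and 0.04 for the lists from left to right. The lists were chosen with earlier results of these data known.

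The genes whose log2 CPM most resembled the members' mean over the 6 libraries included none of the 100 listed platelet genes, although Stx11, a SNARE, is known from platelet secretion. Among genes tested with a mean of at least 1 CPM the 12 with the highest Pearson r were Plin2, Il1a, Ercc1, Cstdc4, Dixdc1, Cxcl3, Slc7a11, Mmd, Sptbn5, Hilpda, Cxcl2 and Stx11, with r of 0.982 to 1.000 over 6 libraries. Plin2, a lipid droplet protein, had 195, 192 and 89.8 CPM in shYthdf2 against 95.2, 101 and 105 CPM in shNC. Il1a, the cytokine interleukin 1 alpha, had 5.25, 5.65 and 0.276 CPM in shYthdf2 against 0.311, 0.516 and 0.606 CPM in shNC. Slc7a11, the cystine transporter, had 10.8, 12.03 and 1.01 CPM in shYthdf2 against 1.57, 1.17 and 2.27 CPM in shNC. All share the same 2 high libraries, on which these values of r rest.

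Markers of other cell types also differed between the libraries. The platelet and megakaryocyte marker list, of which 7 genes are members, summed to 186, 190 and 52.5 CPM in shYthdf2 against 46.1, 41.2 and 53.8 CPM in shNC, and Tubb1 and Gp6 were each at 0 in 1 library. The 8 neutrophil markers summed to 495, 489 and 124 CPM in shYthdf2 against 131, 199 and 379 CPM in shNC, with 7 of 8 genes positive and none called. The sum was highest in shYthdf2 1 and 2 and next in shNC 3, but only 3 of the 8 genes had shYthdf2 1 and 2 as their highest libraries, and none was 2-fold higher.

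The 7 red cell markers tested summed to 614, 613 and 642 CPM in shYthdf2 against 2097, 3694 and 479 CPM in shNC, with all 7 log2 fold changes negative, 6 of them at an unadjusted p under 0.05 and none called by edgeR at an adjusted p under 0.05. The sum of shNC 3 was below those of all 3 shYthdf2 libraries, so the direction rests on shNC 1 and 2. Cardiomyocyte markers, at 20696 to 49403 CPM in sum, were far above all other lists in every library, and had 21844, 21288 and 27614 CPM in shYthdf2 against 34865, 49403 and 20696 CPM in shNC.

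Endothelial markers ranged from 1269 to 1343 CPM in shYthdf2 and from 952 to 1641 CPM in shNC. Monocyte and macrophage markers ranged from 540 to 618 CPM in shYthdf2 and from 354 to 917 CPM in shNC. Fibroblast markers ranged from 820 to 1576 CPM in shYthdf2 and from 760 to 1389 CPM in shNC, and smooth muscle and pericyte markers from 899 to 1168 CPM in shYthdf2 and from 600 to 1025 CPM in shNC. B and T cell markers stayed between 4.27 and 9.55 CPM in shYthdf2 and between 3.67 and 8.44 CPM in shNC, and Cd3d was at 0 in shYthdf2 1 and shNC 2. Besides the platelet and neutrophil lists, the smooth muscle and pericyte list also had its highest sums in shYthdf2 1 and 2, with 3 of 8 genes higher at an unadjusted p under 0.05 and none called by edgeR. The part of these cell types in the platelet result was not tested.

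**Figure D5:**
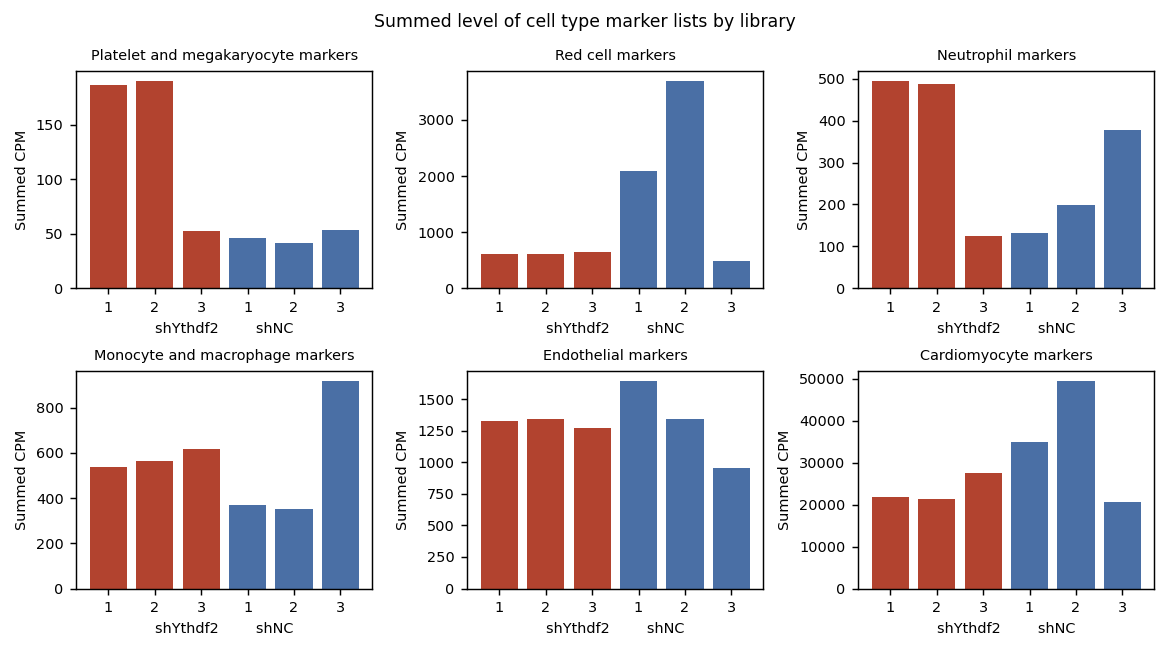
Summed CPM of the marker lists of 6 cell types in each library, shYthdf2 1 to 3 in red left of shNC 1 to 3 in blue, on axes that start at 0. Platelet and neutrophil sums are highest in shYthdf2 1 and 2, whereas red cell sums are 613 to 642 CPM in the shYthdf2 libraries and 2097, 3694 and 479 CPM in shNC.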

How the data were processed

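Total RNA of 6 mouse heart samples was extracted with Trizol and sequenced after a TruSeq preparation, per the labels' protocols. The authors deposited 1 table of 55359 genes with raw counts per gene, not scaled to depth, per the file headers. Its FPKM values, scaled to gene length and depth, are the authors' own, per the file headers. Bowtie 0.12.2 and the build mm8 appear in the submitters' processing notes, which state no role. Counter, annotation and coordinate build are not given in the sources used, and no strand setting is stated, so rows that overlap are uncertain.

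edgeR 4.0.16 (R 4.3.3), with its quasi-likelihood test, two-sided, TMM scaling, filterByExpr and Benjamini-Hochberg adjustment, was run on the counts of all genes, of which 20489 were tested (99.9% to 99.97% of each library's counts). A gene was called at an adjusted p under 0.05. CPM are on the TMM-scaled library size, and folds are shYthdf2 over shNC. The common biological coefficient of variation was 48.2%. Alternatives were DESeq2 1.42.0, limma 3.58.1 on log2(FPKM + 0.1) and log2(FPKM + 1), other scalings and filters, a replicate block, each library left out, shYthdf2 1 and 2 summed, and robust quasi-likelihood, which was added after seeing the data. The procedure was tested on simulated data with less spread between libraries than these data have. That test therefore does not show how many true changes would be found here. The members and lists were chosen with earlier results of these data known. Named were all members, the 3 genes of each list with the smallest unadjusted p, 10 lineage genes always, the 12 genes most like the members' mean, genes whose rows overlap a member's, and Ythdf2. Some genes named by this rule are not reported here. Promoter sequences are from RefSeq, build GRCm38.p6, and their coordinates are not comparable with the table's.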

Additional observations from a re-analysis of the deposited data

How the results depend on the processing

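The count of genes called was 2 in the edgeR fit and also with DESeq2's size factors, with upper-quartile scaling, without a filter, with a filter of 1 CPM in 3 libraries and with robust quasi-likelihood (chosen after seeing the data). It was 1 with no scaling beyond the total count and 1 with limma on either FPKM scale, 54 with DESeq2 (40 higher), 0 with the replicate block, 0 with shYthdf2 1 and 2 summed, and 0 to 211 with 1 library left out, the 211 without shNC 3. The same-numbered libraries did not deviate together (r of -0.01, -0.03 and -0.06), and the main fit used no pairs. With 3 libraries per group these r cannot exclude pairing, which the labels do not state. Platelet members called were 0, against 2 with DESeq2. Other platelet genes called were 0, against 2 with DESeq2, and 0 to 2 with 1 library left out. Those called without shNC 3 were Plek and Vasp (adjusted p = 0.0438 and 0.0466, edgeR), 2 of 97 against 0.993% of all genes tested. The members' median log2 fold change of 2.28 was 0.99 with limma on log2(FPKM + 1), whose pseudocount shrinks low genes, 1.52 over the 6 members that passed the 1 CPM filter, 1.87 with the replicate block, 1.97 with shYthdf2 1 and 2 summed, 2.36 over the 7 members without an overlapping row, and 1.92 to 2.77 with 1 library left out. Of 166 alternative values of single members none was negative. Depth limits the lowest values, 4 counts for Treml1 and 10 for Gp1bb in shYthdf2 3, and 7 for Gp1bb in shNC 1.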
